A study of Mus musculus with 11 samples.

Results

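The stathmins and the classical neuronal microtubule-associated proteins (MAPs) were examined in newborn thalamic neurons. They are represented here by 10 genes chosen by name: Stmn1, Stmn2, Stmn3, Stmn4, Map1a, Map1b, Map2, Mapt, Dcx and Dclk1. They were found among the 54752 genes counted by matching Ensembl identifiers to mouse symbols, and all 10 passed the filter on low counts that left 15907 genes for testing. Neurons came from 3 sensory nuclei of the thalamus in newborn (P0) ICR/CD-1 mice: the visual dorsolateral geniculate nucleus (dLG, n = 4 libraries), the somatosensory ventral posteromedial nucleus (VPM, n = 4) and the auditory medial geniculate nucleus, ventral part (MGv, n = 3). All 3 groups shared 1 genotype, Gbx2CreER-IRES-EGFP/+::R26lsl-tdTomato/+, in which tamoxifen activates Cre in cells that express Gbx2, a gene of thalamic neurons, and Cre switches on the red protein tdTomato. Every mouse therefore carried a Gbx2 allele with an insertion, and the sorted cells were those labelled by the Gbx2 driver, not all neurons of a nucleus. Each library pooled tissue of 4 brains, and the labels do not say whether libraries of different nuclei came from the same brains, so the spread between libraries is the only error available. The comparisons ask which genes differ between neurons that serve vision, touch and hearing at birth.

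Microtubules grow and shrink by adding and losing tubulin at their ends, and a growing axon or dendrite depends on how this is controlled. Stathmins bind free tubulin dimers and favour disassembly. Stmn1 is found in dividing and young cells, while Stmn2, Stmn3 and Stmn4 carry a membrane anchor and are typical of neurons. MAPs bind the microtubule lattice and stabilise or space it: tau (Mapt) is mainly axonal, MAP2 mainly dendritic, MAP1B prominent in extending axons and MAP1A in more mature neurons, and doublecortin (Dcx) and its relative DCLK1 act in migrating and growing neurons.

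Total counts ran from 10175653 to 23559130 per library, and the 3 MGv libraries, with 13164909, 11379536 and 10175653, lay below the other 8, which began at 15867673. Levels are in CPM, read counts scaled by TMM to a common library size, and every member had at least 667 counts in each library. Checked against markers, 9 pan-neuronal genes summed to 7382 to 8901 CPM, while 7 GABAergic, 7 cortical and 8 vascular markers summed to at most 5.19, 13.0 and 7.97 CPM in any library. Other cells left more RNA: 10 radial glia and astrocyte markers summed to 162 to 311 CPM, 8 oligodendrocyte-lineage markers to 13.2 to 86.5, 7 microglial markers to 5.23 to 23.9, and 5 blood markers to 514 CPM in dLG 3 and at most 11.7 elsewhere. Replicate 3 of VPM stood apart by transcript length. Deviations of each library were taken from the mean of the other libraries of its nucleus. Those of VPM 3 correlated with exon length across 15901 genes at a Spearman rho of -0.365, against 0.204 to 0.238 in the other VPM libraries. The means used for the other VPM libraries include VPM 3, so their rho values are not independent of it. In VPM 3, genes with under 2000 exon bases lay a median 0.50 log2 units above the mean of the other VPM libraries. The members run from 1136 exon bases (Stmn3) to 16449 (Map2), and the value of VPM 3 is the third wherever 4 VPM values are listed.

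Together the 10 genes took 1.81% to 2.52% of all counts in a library. Merged exons pool all annotated transcripts of a gene, from 1 for Stmn3 to 24 for Map2, so levels per kilobase compare genes only roughly. On this scale Stmn3 was the most abundant member, with a mean of 3162 CPM per kb over the 11 libraries and rank 7 among the genes tested. By CPM without length, Map1b (5499, rank 8) and Stmn2 (5225, rank 11) exceeded Stmn3 (3592, rank 19). Per kilobase, Stmn2 followed Stmn3 at 933 CPM per kb (rank 34), Stmn4 at 683 (rank 49), Mapt at 465 (rank 84) and Map1b at 347 (rank 121). Stmn1 stood much lower at 65.4 CPM per kb, close to Dclk1 at 53.5, and Map2 and Dcx reached 27.6 and 26.8. Map1a was the least abundant member at 5.54 CPM per kb (rank 6118). Several neighbours in this order had overlapping ranges over libraries of a nucleus: Stmn2 and Stmn4 overlapped in dLG and VPM but not in MGv, Mapt and Map1b overlapped in VPM, and Map2 and Dcx overlapped in every nucleus. The 3 anchored stathmins of neurons were on average more abundant per length than any MAP. In MGv, however, the mean of Mapt, 584 ± 80.0 CPM per kb (SD, n = 3), exceeded that of Stmn4, 503 ± 33.1. The ranges of this pair overlapped in MGv, and in MGv 1 Stmn4 (532) was above Mapt (521).

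**Figure D1:**
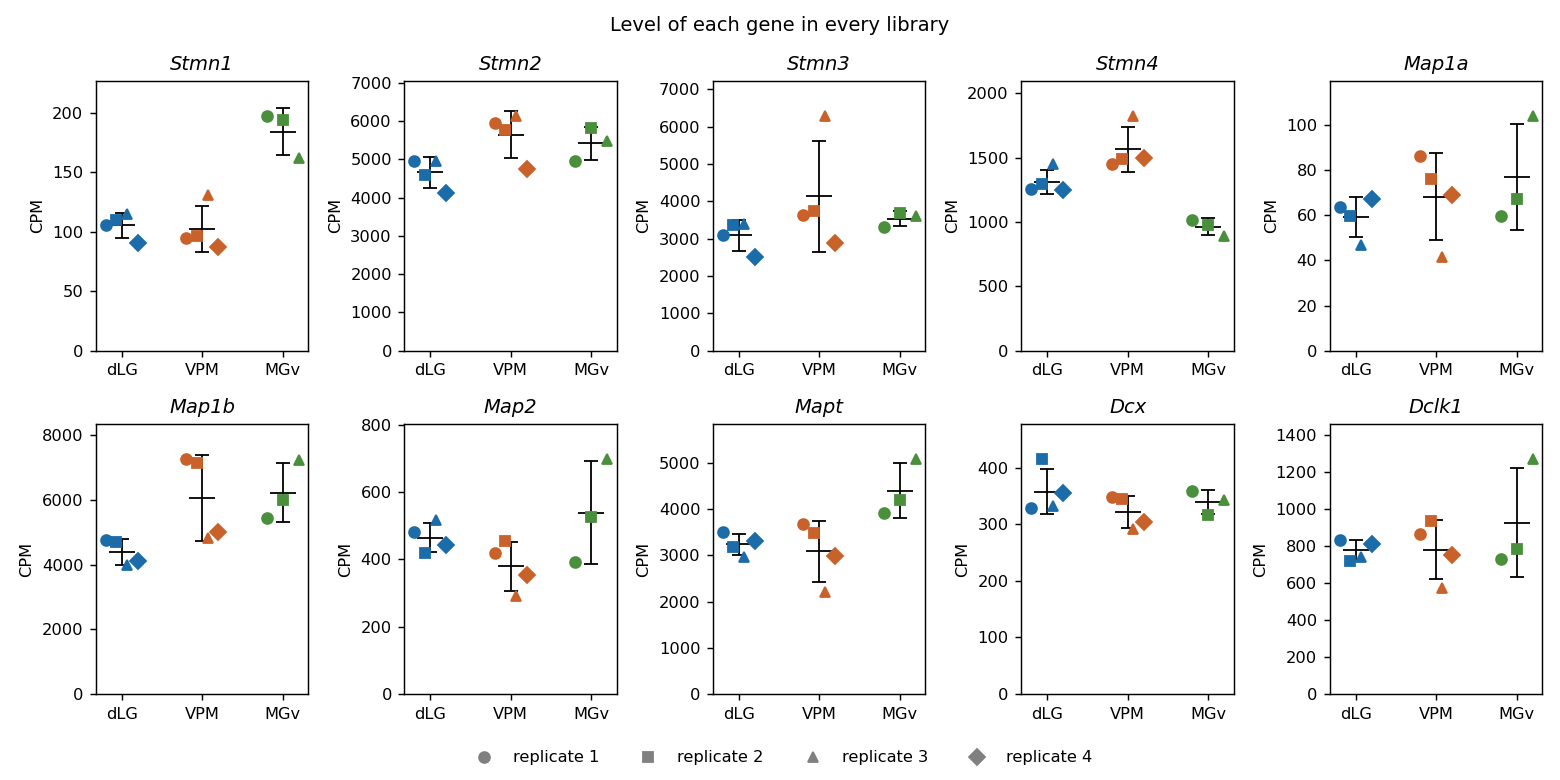
Level of each of the 10 genes (y axis, TMM-scaled CPM, starting at 0) in every dLG, VPM and MGv library. Symbols mark the replicate number and the black bars the mean ± SD of 4, 4 and 3 libraries. Stmn1 sits at 162 to 197 CPM in MGv, above all other libraries, and Stmn4 at 895 to 1019 CPM in MGv, below all others. In bulk RNA, fewer cells of a type and less RNA per cell cannot be told apart.

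Among the members, 1 of 10 differed in the comparison of dLG with VPM, 3 of 10 in that of dLG with MGv and 4 of 10 in that of VPM with MGv, at an adjusted p under 0.1 in edgeR's quasi-likelihood test across all genes. The same rule called 10.7% of all genes tested in the first comparison, 16.1% in the second and 19% in the third. Stmn1 and Stmn4 set MGv apart in opposite directions, and Map1b was lower in dLG than in VPM and MGv. Mapt and Map2 were higher in MGv than in VPM, the call on Map2 with overlapping libraries. Stmn2, Stmn3, Map1a, Dcx and Dclk1 passed in no comparison. The 3 comparisons share libraries pairwise, so their values are given side by side and are not independent of each other.

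Stmn1 encodes stathmin itself, a cytosolic phosphoprotein that sequesters tubulin. The gene lies at chr4:134468320-134473843 on the plus strand (GRCm38) with 1922 bases of merged exon. Its levels in MGv were 197, 194 and 162 CPM. In dLG they were 105, 110.1, 115 and 90.8 CPM, and in VPM 94.4, 96.4, 131 and 87.0 CPM. Every MGv library was above all 8 others, while dLG and VPM overlapped. The mean of 184 ± 19.4 CPM (SD, n = 3) in MGv was 1.75-fold that in dLG (105 ± 10.5, n = 4; log2 difference dLG minus MGv -0.81 ± 0.16 SE, edgeR adjusted p = 0.00349) and 1.80-fold that in VPM (102 ± 19.6, n = 4; -0.85 ± 0.16, edgeR adjusted p = 0.00265). Between dLG and VPM the log2 difference was 0.04 ± 0.14 (edgeR adjusted p = 0.916).

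Both MGv differences of Stmn1 passed in 25 of 25 alternative settings, among them the fits without VPM 3, without MGv 3 and with libraries thinned to the smallest total. With an added correction for exon length they were -0.88 (edgeR adjusted p = 0.000171) and -0.96 (8.05e-05). Of the 50-base windows in Stmn1 transcripts, 18.9% also occur in Gm11223 or Gm23634. How the authors' counting treated such reads is not stated, so the level of Stmn1 is uncertain to that extent. Gm11223 itself had 11.2, 7.37 and 12.6 CPM in MGv and 4.01 to 7.51 CPM elsewhere. Markers of cells other than neurons differed between the nuclei in both directions. The 10 cycling-cell markers summed to 26.6 to 39.0 CPM in MGv, 20.9 to 31.5 in dLG and 29.0 to 38.8 in VPM, with Mcm2 higher in MGv than in both. Of the 8 tested, 2 were called higher in MGv than in dLG and 1 higher in MGv than in VPM, and 0 the other way. Their median log2 difference was -0.27 for dLG minus MGv and 0.34 for VPM minus MGv. The 10 radial glia and astrocyte markers overlapped between nuclei at 162 to 311 CPM. Of the 9 tested, 2 were called higher in MGv than in dLG and 1 higher in dLG (7.49% and 8.61% of all genes). Against VPM, 2 were higher in MGv and 0 in VPM (8.56% and 10.4% of all genes). Slc1a3 was among those higher in MGv. For the 9 radial glia and astrocyte markers tested the medians were -0.15 for dLG minus MGv and 0.22 for VPM minus MGv. The 8 oligodendrocyte-lineage markers summed to 75.2 to 86.5 CPM in MGv against 13.2 to 44.0 elsewhere, most of it Mbp, while Sox10 and Olig2 were at 0 in MGv. The 8 vascular markers went the other way, at 2.92 to 4.28 CPM in MGv, 4.25 to 6.19 in dLG and 6.09 to 7.97 in VPM. The 7 microglial markers summed to 10.4 to 22.1 CPM in MGv, 5.23 to 11.5 in dLG and 8.75 to 23.9 in VPM. The part of these markers in the difference of Stmn1 was not tested.

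Stmn4, a neuronal stathmin also called RB3 (chr14:66344296-66361680, plus strand), showed the opposite order. Levels in MGv were 1019, 979 and 895 CPM. Those in dLG were 1254, 1293, 1450.1 and 1251 CPM, and those in VPM 1448, 1489, 1822 (VPM 3) and 1499 CPM. No MGv library reached the lowest value of either other nucleus, and dLG and VPM overlapped only at their edges. Stmn4 was 1.62-fold higher in VPM than in MGv (log2 difference 0.70 ± 0.12, edgeR adjusted p = 0.00226) and 1.36-fold higher in dLG than in MGv (0.44 ± 0.12, edgeR adjusted p = 0.0304). The first held in 25 of 25 alternatives and the second in 24 of 25, since without MGv replicate 3 it was 0.39 with an adjusted p of 0.112. Between dLG and VPM the log2 difference was -0.25 ± 0.11 (edgeR adjusted p = 0.220), and it passed in 1 of 25 alternatives, limma voom with quality weights (-0.20, adjusted p = 0.0662).

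Stmn2 (SCG10), a growth-cone stathmin of regenerating and developing axons, did not separate the nuclei. It had 4963, 4588, 4956 and 4127 CPM in dLG, 5943, 5762, 6127 and 4752 CPM in VPM and 4959.6, 5816 and 5484 CPM in MGv. The ranges overlapped in all 3 comparisons, and the log2 differences were -0.28 ± 0.12 (dLG minus VPM), -0.22 ± 0.13 (dLG minus MGv) and 0.06 ± 0.13 (VPM minus MGv), with edgeR adjusted p of 0.194, 0.323 and 0.806. The dLG to VPM difference passed in 2 of 25 alternatives, limma voom with quality weights and the fit without VPM replicate 4.

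Stmn3 (SCLIP), the member with the highest level per length, varied most within VPM. It had 3626, 3727, 6277 and 2889 CPM there, the high value being VPM 3. In dLG it had 3108, 3368, 3400.3 and 2507 CPM and in MGv 3300.1, 3697 and 3615 CPM. The coefficient of variation was 35.8% in VPM against 13.4% in dLG and 5.92% in MGv, and no comparison passed (edgeR adjusted p = 0.256, 0.647 and 0.549). Without VPM replicate 3 the log2 difference from dLG fell in size from -0.42 to -0.13, and that from MGv changed from 0.22 to -0.05. Without VPM replicate 4 the difference from dLG passed (-0.56, edgeR adjusted p = 0.0989), and with the correction for exon length that between dLG and MGv did (-0.35, 0.0999).

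Shares within the family are free of library scaling. Per kb of exon, Stmn3 made up 60.3% to 72.3% of the 4 stathmins in each library and Stmn2 14.3% to 21.2%, where the 72.3% and the 14.3% were both VPM 3 and the other 10 libraries reached 67.5% at most and 18.1% at least. Stmn4 made up 9.91% to 18.5% and Stmn1 0.892% (VPM 3) to 2.32%. The share of Stmn1 separated all 3 nuclei: it was 1.28% ± 0.0142 (SD, n = 4) in dLG, 0.978% ± 0.0738 (n = 4) in VPM and 2.05% ± 0.265 (n = 3) in MGv, with ranges that did not overlap. Stmn4 took 10.8% ± 1.10 in MGv, 16.0% ± 1.36 in dLG and 15.3% ± 2.50 in VPM, and every MGv library lay below the other 8. The ratio of Stmn2 to Stmn1 per kb was 8.63 to 11.6 in MGv, 14.3 to 16.2 in dLG and 16.0 (VPM 3) to 21.6 in VPM. These shares are descriptions of the members and carry no test.

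**Figure D2:**
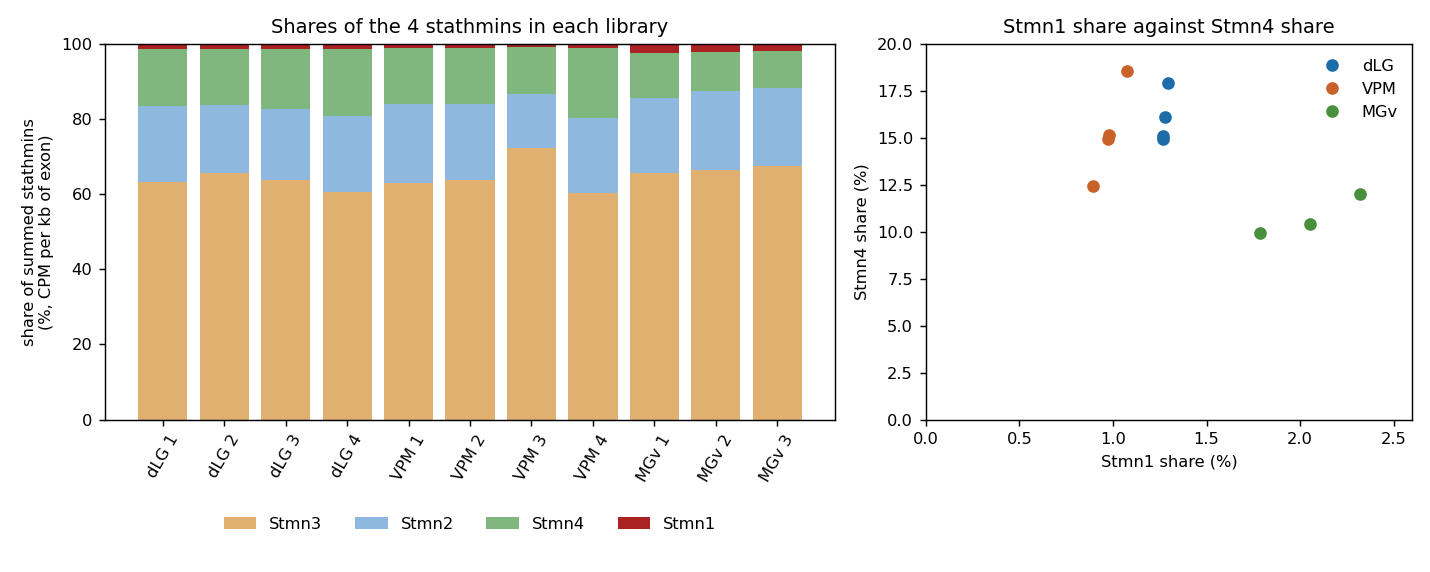
Left, share of each stathmin in the summed CPM per kb of the 4 stathmins (y axis, %) in each of the 11 libraries, as stacked bars. Right, the Stmn1 share against the Stmn4 share (%), 1 point per library. The MGv points have the highest Stmn1 shares (1.79% to 2.32%) and the lowest Stmn4 shares (from 9.91%), and VPM 3 has the largest Stmn3 share, 72.3%.

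The heavy MAPs Map1a and Map1b are paralogues whose proteins share light chains and bind both microtubules and actin. RefSeq promoter windows were found for 6 of the 10 members. Those of this pair are shown because their levels differ most among the related members, with that of Stmn3, the most abundant per kb of exon. Each is the 250 bases before the RefSeq start on GRCm38.p6, read 5′ to 3′ on the gene's strand. Map1b is chr13:99516603-99516852, minus strand, Map1a is chr2:121289352-121289601, plus strand, and Stmn3 is chr2:181314501-181314750, minus strand. Capitals mark the TATA box core TATAAA, the box named CCAAT and the GC box GGGCGG, each on either strand.
Map1b: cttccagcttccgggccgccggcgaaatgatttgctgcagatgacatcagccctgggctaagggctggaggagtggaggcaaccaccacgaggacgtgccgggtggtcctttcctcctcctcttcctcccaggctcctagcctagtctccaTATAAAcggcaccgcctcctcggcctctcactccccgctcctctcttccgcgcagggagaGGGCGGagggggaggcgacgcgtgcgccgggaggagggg
Map1a: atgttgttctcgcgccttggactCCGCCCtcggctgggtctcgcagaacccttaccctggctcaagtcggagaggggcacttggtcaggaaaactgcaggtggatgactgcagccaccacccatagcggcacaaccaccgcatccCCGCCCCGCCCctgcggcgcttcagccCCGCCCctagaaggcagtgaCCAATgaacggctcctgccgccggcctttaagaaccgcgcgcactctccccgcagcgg
Stmn3: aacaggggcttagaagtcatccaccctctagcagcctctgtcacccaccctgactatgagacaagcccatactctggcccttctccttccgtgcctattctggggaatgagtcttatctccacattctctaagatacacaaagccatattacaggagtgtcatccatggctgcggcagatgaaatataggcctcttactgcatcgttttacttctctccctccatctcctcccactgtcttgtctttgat
The Map1b window holds 1 TATAAA, beginning 99 bases before the start, and 1 GGGCGG. The Map1a window holds 1 CCAAT and 4 GGGCGG, all 4 read on the opposite strand and 1 pair of them overlapping, and the Stmn3 window holds none of the 3 motifs. Of 32851 mouse windows of this length, 12.4% hold TATAAA, 33.8% CCAAT and 32.7% GGGCGG. A match of letters is a description and not a measured site.

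Map1b (chr13:99421446-99516540, minus strand) was lower in dLG than in both other nuclei. Its dLG libraries had 4761, 4713, 3985 and 4099 CPM. VPM libraries had 7259, 7149, 4822 and 5002 CPM, and MGv libraries 5444, 6017 and 7239 CPM. All 4 dLG libraries lay below all 7 others, but VPM 3 and VPM 4 exceeded the highest dLG library only narrowly. The log2 difference was -0.46 ± 0.16 from VPM (1.38-fold, edgeR adjusted p = 0.0961) and -0.51 ± 0.17 from MGv (1.42-fold, edgeR adjusted p = 0.0684), and -0.04 ± 0.17 between VPM and MGv (edgeR adjusted p = 0.902).

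Both Map1b calls were near the threshold. The first failed in 11 of 25 alternatives, with an adjusted p of 0.128 without dLG replicate 1, 0.212 without dLG 3, 0.208 without dLG 4, 0.224 without VPM 1, 0.274 without VPM 2, 0.104 without MGv 1 and 0.115 without MGv 2. The second failed in 8 of 25, with 0.160 without dLG 3, 0.139 without dLG 4, 0.119 without MGv 2 and 0.263 without MGv 3. With the correction for exon length both passed, at -0.56 (edgeR adjusted p = 0.0163) and -0.48 (0.0355) for VPM and MGv respectively.

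Map1a, the partner of mature neurons, had 63.5, 59.8, 46.7 and 67.2 CPM in dLG, 86.2, 76.2, 41.4 (VPM 3) and 69.1 in VPM and 59.8, 67.1 and 104 in MGv. The ranges overlapped throughout and no comparison passed (log2 differences -0.20 ± 0.22, -0.37 ± 0.24 and -0.17 ± 0.24; edgeR adjusted p = 0.693, 0.385 and 0.696). Map1b exceeded Map1a 89.5-fold per kb in VPM 3 and 46.8- to 72.0-fold in the other 10 libraries. Of the Map1a exon bases, 2.24% overlap Ppip5k1 on the opposite strand, and whether counting used strand is not stated.

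Mapt encodes tau (chr11:104231390-104332090, plus strand). MGv libraries had 3920.2, 4206 and 5077 CPM, dLG libraries 3505, 3181, 2964 and 3318 CPM and VPM libraries 3673, 3480.3, 2199.7 and 2993 CPM. All 3 MGv libraries were above the other 8. The difference passed against VPM (log2 difference VPM minus MGv -0.51 ± 0.16, 1.43-fold, edgeR adjusted p = 0.0565) and missed the threshold against dLG (-0.44 ± 0.16, edgeR adjusted p = 0.107). The call against VPM was lost in 5 of 25 alternatives, with an adjusted p of 0.102 without MGv replicate 2 and 0.228 without MGv replicate 3. The difference from dLG passed in 10 of 25, among them DESeq2 (adjusted p = 0.0814), the fit without VPM replicate 3 (0.0169) and the correction for exon length (0.0373).

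Map2, the dendritic counterpart of tau (chr1:66175273-66442583, plus strand), had 393, 527 and 697 CPM in MGv, 418, 455, 292 and 352 in VPM and 482, 418, 516 and 444 in dLG. The lowest MGv library lay inside the VPM range. The VPM to MGv difference was -0.51 ± 0.19 with an edgeR adjusted p of 0.0994, just under the threshold, and was lost in 15 of 25 alternatives, 9 of them fits without 1 library. It was -0.40 without VPM replicate 3 (edgeR adjusted p = 0.157), -0.27 without MGv replicate 3 (0.442) and -0.38 with the correction for exon length (0.138). Without each other library whose removal ended the call, namely dLG 1, dLG 2, dLG 3, dLG 4, MGv 2, VPM 1 and VPM 4, the adjusted p was 0.134, 0.112, 0.112, 0.122, 0.171, 0.128 and 0.171. Differences from dLG were 0.29 ± 0.18 (dLG minus VPM) and -0.21 ± 0.19 (dLG minus MGv), and neither passed (edgeR adjusted p = 0.398 and 0.560). Per kb, Map2 stood at 0.0459 to 0.0797 of the Mapt level in every library.

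Dcx, the doublecortin gene on the X chromosome (chrX:143855842-143933311, minus strand), differed least between nuclei, with no log2 difference above 0.15 in size. Its levels were 328, 414, 331 and 356 CPM in dLG, 349, 344, 292 and 303 in VPM and 359, 316 and 343 in MGv. All ranges overlapped, and the log2 differences of 0.15 ± 0.12, 0.08 ± 0.13 and -0.08 ± 0.13 did not pass (edgeR adjusted p = 0.539, 0.784 and 0.747). Dclk1, a doublecortin-like kinase, had 833, 719, 742 and 809.6 CPM in dLG, 864, 933, 573 and 748 in VPM and 728, 782 and 1266 in MGv. The ranges overlapped again, with differences of -0.01 ± 0.18, -0.25 ± 0.20 and -0.25 ± 0.20 (edgeR adjusted p = 0.991, 0.487 and 0.461). The high MGv value and the low VPM value both came from replicate 3.

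**Figure D3:**
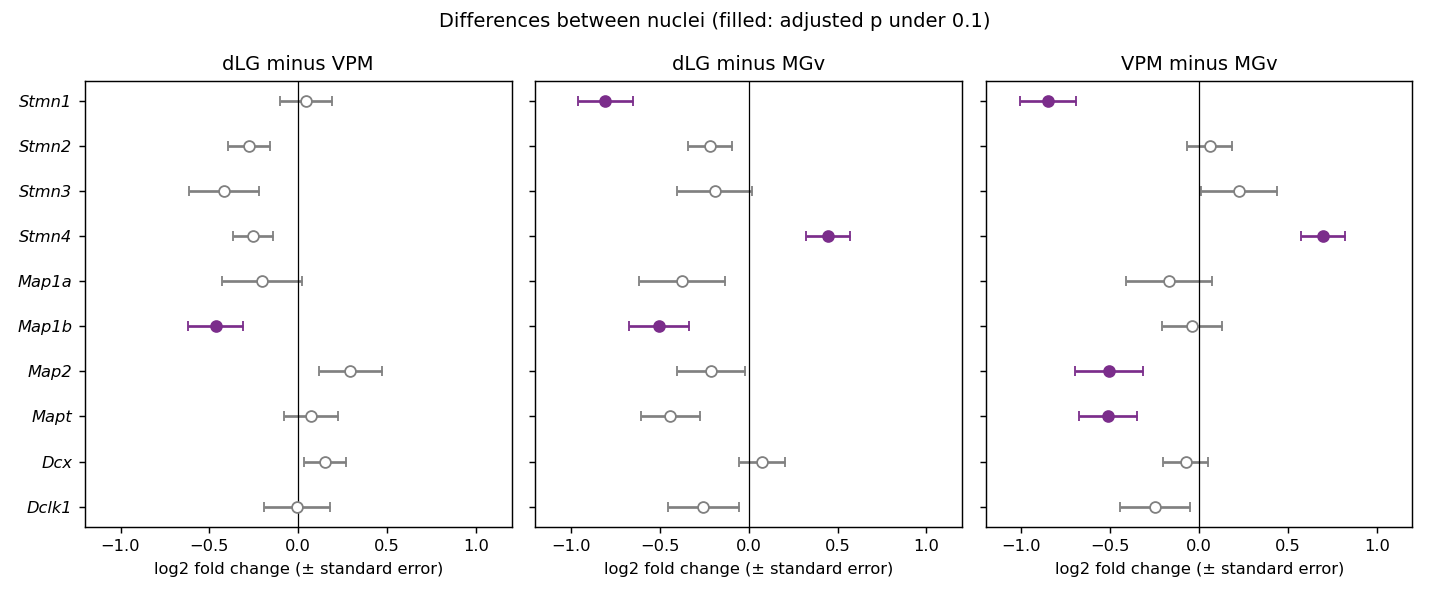
Log2 fold change of each member in the 3 comparisons (x axis, first nucleus minus second; bars are ± 1 standard error from the edgeR fit). Filled points have an edgeR adjusted p under 0.1: Map1b in dLG minus VPM, Stmn1, Stmn4 and Map1b in dLG minus MGv, and Stmn1, Stmn4, Map2 and Mapt in VPM minus MGv.

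By counts, groups did not overlap for 1 of 10 members in dLG against VPM (Map1b), 4 of 10 in dLG against MGv (Stmn1, Stmn4, Map1b and Mapt) and 3 of 10 in VPM against MGv (Stmn1, Stmn4 and Mapt). Of all genes tested, 14.6%, 23.8% and 25.1% did not overlap in the same comparisons. The median log2 difference of the members was -0.10, -0.24 and -0.12, against 0.00, 0.02 and 0.02 over all genes tested. By direction, 2 of 10 members were called higher in MGv and 1 of 10 higher in dLG in that comparison (7.49% and 8.61% of all genes). Between the other pair with MGv, 3 of 10 were higher in MGv and 1 of 10 in VPM (8.56% and 10.4% of all genes). Against VPM, 1 of 10 was lower in dLG and 0 of 10 were higher by edgeR, where 5.74% and 4.97% of all genes were called (at an unadjusted p under 0.05 Map1b, Stmn2 and Stmn4 were lower in dLG and no member higher, and DESeq2 called no member higher in dLG either). The sets are small and were chosen with results known, so these shares are descriptions.

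In VPM 3 the members split by exon length. VPM 3 had the highest VPM level of all 4 stathmins, whose merged exons span 1136 to 5602 bases, and the lowest VPM level of Map1a, Map1b, Map2, Mapt, Dcx and Dclk1, which span 7531 to 16449 bases. MGv 3 had the highest MGv level of Map1a, Map1b, Map2, Mapt and Dclk1 and the lowest of Stmn1 and Stmn4. Its levels of Stmn2, Stmn3 and Dcx lay between those of MGv 1 and MGv 2. Over all genes the deviations of MGv 3 correlated with exon length at a Spearman rho of 0.156, a weaker trend of the opposite sign. By this measure MGv 3 did not stand out, since MGv 2 had a rho of -0.179 and dLG 4 of 0.156. With VPM 3 and MGv 3 both left out, an alternative chosen after seeing the data, 2 of 10 members passed between VPM and MGv in place of 4: Stmn1 and Stmn4. Mapt was then -0.27 (edgeR adjusted p = 0.156) and Map2 -0.17 (0.516).

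**Figure D4:**
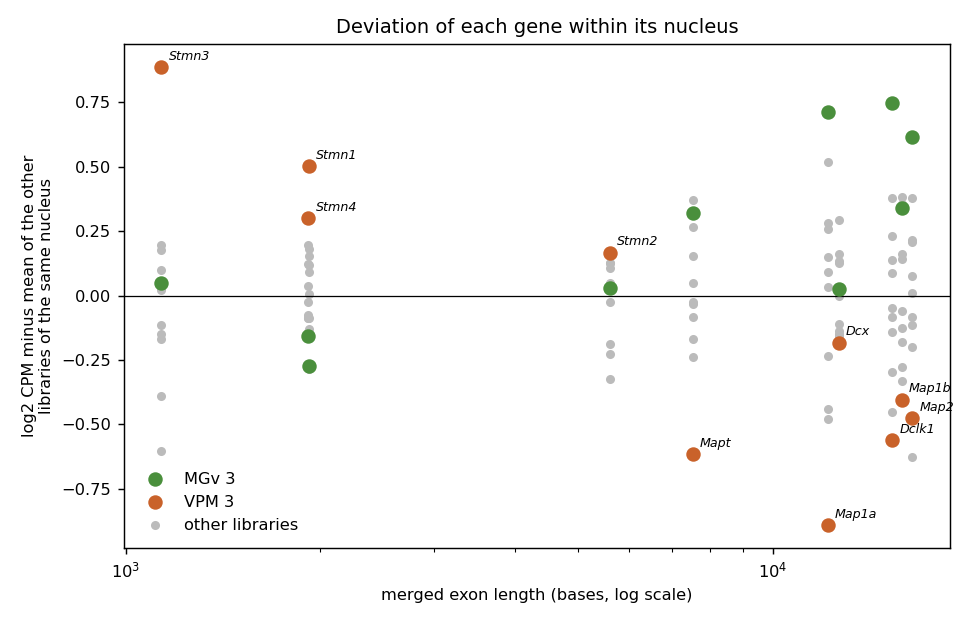
Deviation of each member in each library from the mean of the other libraries of its nucleus (y axis, log2 CPM) against merged exon length (x axis, bases, log scale). VPM 3 (orange, genes named) lies above 0 for the 4 stathmins (1136 to 5602 bases) and below 0 for the 6 longer members, MGv 3 (green) lies above 0 for most of the longer ones, and grey points are the other 9 libraries.

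The wider microtubule machinery was described with 100 other genes in 10 role lists, of which 91 could be tested. Of these, 6 (6.59%) were called for dLG against VPM, 20 (22%) for dLG against MGv and 15 (16.5%) for VPM against MGv, beside 10.7%, 16.1% and 19% of all genes tested. Their median log2 differences were -0.10, -0.14 and -0.10. Of the calls between dLG and MGv, 16 were higher in MGv and 4 in dLG, while over all genes 1192 were higher in MGv and 1370 in dLG. Without VPM replicate 3 the calls between dLG and VPM rose to 16 and those between VPM and MGv to 23.

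The collapsin response mediator proteins (CRMPs), tubulin-binding proteins of the growth cone that relay semaphorin signals, were called in 1 direction in each comparison. Of 5 tested, 4 were higher in MGv than in dLG (7.49% of all genes were), 2 were higher in VPM than in dLG (5.74%) and 1 was higher in MGv than in VPM (8.56%), and no CRMP was called the other way by edgeR. Dpysl5 had 529 to 615 CPM in MGv, 252 to 384 in VPM and 228 to 295 in dLG, with log2 differences of -1.06 ± 0.15 (dLG minus MGv, edgeR adjusted p = 0.000392) and -0.75 ± 0.15 (VPM minus MGv, 0.00508). Dpysl3 was lowest in dLG, by 0.68 ± 0.12 against MGv (edgeR adjusted p = 0.00233) and by 0.39 ± 0.12 against VPM (0.0583). Crmp1 was likewise lower in dLG, at 1332 to 1658 CPM against 1991 to 2168 in VPM and 1815 to 2196 in MGv.

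Among other structural MAPs, 4 of 14 were higher in MGv than in dLG (7.49% of all genes were). They were led by Mtus2 (-0.76 ± 0.13, edgeR adjusted p = 0.00163), Tppp3 (-0.72 ± 0.20, 0.0351) and Map9 (-0.48 ± 0.15, 0.0522). None was called between dLG and VPM, beside 10.7% of all genes. Mtus2 was also higher in MGv than in VPM (-0.81 ± 0.13, edgeR adjusted p = 0.00112), while Map6d1 was higher in VPM (0.96 ± 0.28, 0.0365). In the doublecortin family, Dcdc2a, whose human counterpart is a dyslexia candidate gene, separated all 3 nuclei at 25.6 to 37.3 CPM in dLG, 15.5 to 18.6 in VPM and 2.24 to 6.23 in MGv. Its log2 differences were 0.88 ± 0.23, 2.90 ± 0.29 and 2.02 ± 0.28, larger than any among the 10 members in each comparison. Dclk3 was lower in VPM than in MGv (-1.08 ± 0.36, edgeR adjusted p = 0.0637).

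Of the enzymes that cut or modify microtubules, the severing protein gene Fign was higher in MGv, at 163 to 211 CPM against 75.8 to 81.3 in dLG and 75.0 to 109 in VPM (edgeR adjusted p = 7.38e-05 and 0.000554). Spast, which encodes spastin, was higher in dLG than in MGv (0.60 ± 0.18, edgeR adjusted p = 0.0387). Vash2, a tubulin tyrosine carboxypeptidase gene, was higher in VPM than in dLG (-0.67 ± 0.14, edgeR adjusted p = 0.00772) and MGv (0.55 ± 0.15, 0.0265), and the polyglutamylase subunit gene Ttll1 was higher in MGv than in both.

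At microtubule ends, 1 of 17 plus-end genes, Nav2, was called. It had 24.1 to 65.3 CPM in dLG and 13.0 to 35.6 in VPM against 6.23 to 12.5 in MGv. Of all genes tested, 16.1% were called between dLG and MGv and 19% between VPM and MGv. The minus-end genes Camsap3 (-0.92 ± 0.22, edgeR adjusted p = 0.0117) and Ninl (-1.23 ± 0.39, 0.0567) were higher in MGv than in dLG. Of 5 genes of the dynein and lissencephaly pathway, Dctn1 was higher in MGv than in dLG (-1.03 ± 0.17, edgeR adjusted p = 0.00112) and VPM (-0.80 ± 0.17, 0.00691), and Pafah1b1, which encodes LIS1, was higher in VPM than in MGv (0.45 ± 0.15, 0.0658). No depolymerising kinesin passed among 3 tested by edgeR.

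Kinases that phosphorylate stathmins or MAPs included a pair with large differences. Camk4, a calcium-dependent kinase gene, had 487 to 837 CPM in VPM, 335 to 471 in dLG and 154 to 183 in MGv (log2 VPM minus MGv 1.90 ± 0.19). Camk2a ran the other way, with 36.6 to 53.6 CPM in MGv, 19.7 to 31.5 in dLG and 8.13 to 14.8 in VPM (log2 VPM minus MGv -1.87 ± 0.23). Both differed in all 3 comparisons, and in neither gene did any 2 nuclei overlap. Camk2b was higher in MGv than in dLG (-0.68 ± 0.15, edgeR adjusted p = 0.00725) and VPM (-0.60 ± 0.15, 0.0155), and Mapk10 was higher in MGv than in dLG (-0.51 ± 0.13, 0.0173).

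**Figure D5:**
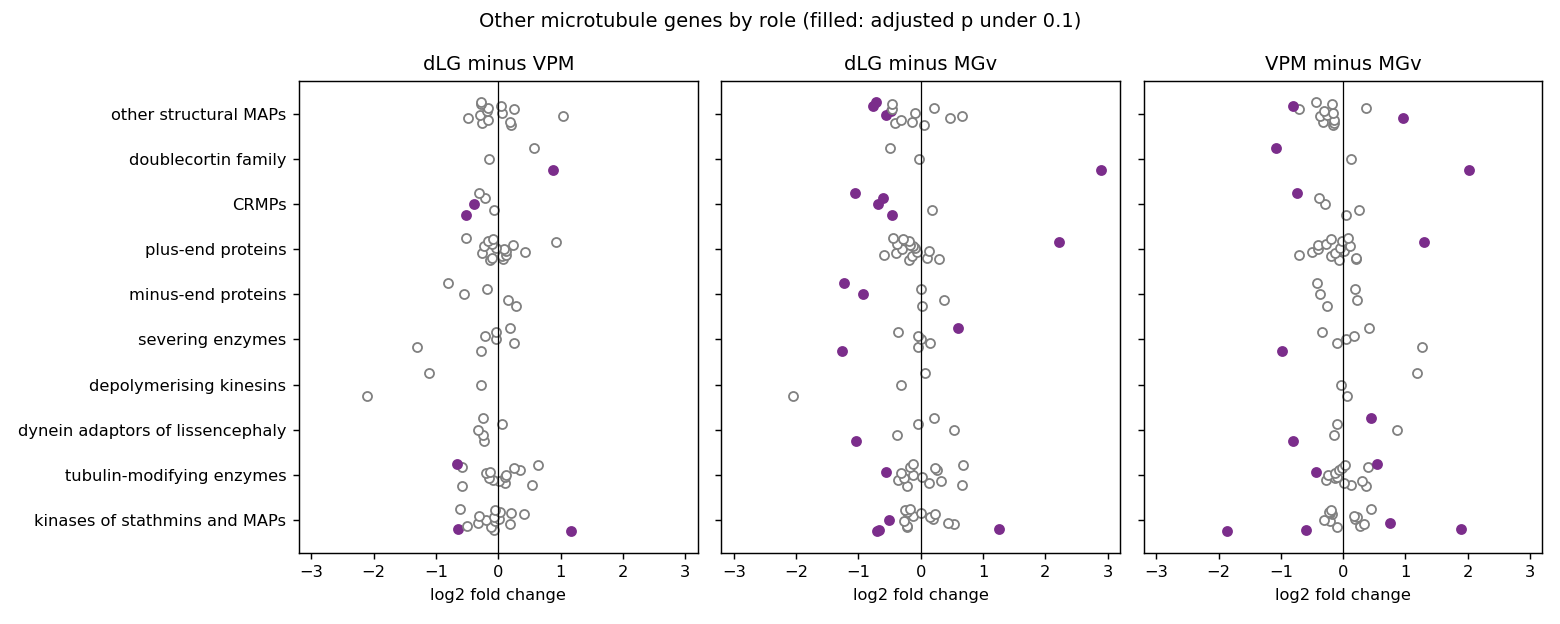
Log2 fold changes (x axis, first nucleus minus second) of the 91 other microtubule genes tested, 1 point per gene, in 10 role lists. Filled points have an edgeR adjusted p under 0.1, 6, 20 and 15 of them in the 3 comparisons. CRMPs lie mostly to the left, towards MGv, in dLG minus MGv, and Dcdc2a is the point farthest to the right there (2.90).

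Tested genes other than the members were ranked by Pearson's r of log2 CPM with each called member over the 11 libraries. Genes compared in this way share nucleus, library and depth. Nmral1 and Itm2b came closest to Stmn1 (both r = 0.98), and A430010J10Rik (r = 0.98) and Rbbp7 (r = 0.97) to Stmn4. Olfm3 and 9130017K11Rik were closest to Map1b (both r = 0.94), Tmod2 and Lasp1 to Mapt (both r = 0.98), and Fam208b (r = 0.96) and Dennd5b (r = 0.94) to Map2. With the nucleus means removed, r was 0.88 for Nmral1 with Stmn1 and 0.97 for Tmod2 with Mapt.

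Maturation and dissociation markers differed between the nuclei beside these results. The 10 markers of later neuronal maturation summed to 2132 to 2205 CPM in MGv, 2834 to 3835 in dLG and 3665 to 5271 in VPM. Of these sums, the neurofilament genes Nefl and Nefm gave 1026 to 1069 CPM in MGv, 1871 to 2874 in dLG and 2601.5 to 3890 in VPM. Without them the other 8 summed to 1085 to 1179 CPM in MGv, 866 to 964 in dLG and 1064 to 1381 in VPM. On that sum MGv lay above dLG and overlapped VPM. Camk2a and Camk2b were higher in MGv than in both other nuclei. Of all 10, edgeR called 4 higher in VPM than in MGv and 2 higher in MGv (10.4% and 8.56% of all genes). Between dLG and MGv it called 2 in each direction (8.61% of all genes higher in dLG and 7.49% in MGv). Between dLG and VPM it called 5 higher in VPM and 1 higher in dLG (5.74% and 4.97% of all genes). Of 10 markers of young postmitotic neurons, 9 were tested. Between dLG and VPM, 4 were called higher in dLG and 0 in VPM. Between dLG and MGv, 3 were higher in dLG and 2 in MGv. Between VPM and MGv, 2 were higher in VPM and 3 in MGv. The shares of all genes beside these calls are those just given. The 10 dissociation-response genes, which include Fos, summed to 283 to 381 CPM in VPM, 480 to 736 in dLG and 612 to 832 in MGv. Camk2a and Camk2b belong both to the maturation list and to the kinases above. The part of these differences in the members' values was not tested.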

How the data were processed

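Per the labels and the methods of the study, tdTomato-positive cells were sorted, cDNA was amplified with a SMARTer low-input kit and 50-base single reads were sequenced on 1 flow cell. The deposited values are raw counts per gene, which the authors made by trimming with Trim Galore 0.6.1 and cutadapt 2.3, aligning with STAR 2.7.0d to mouse GRCm38 (mm10) and counting with featureCounts (Subread 1.6.4). Strand setting and treatment of reads with several alignments are not given in the sources used here. Reads of amplified cDNA carry no molecular identifiers and so do not count single molecules.

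The 10 members, the gene lists and the tests were chosen with earlier results of these data known. Symbols, positions and merged exon lengths came from GENCODE M21 (GRCm38), which matched 54723 of 54752 identifiers, and promoter windows from RefSeq (GRCm38.p6). All 11 libraries entered 1 edgeR 4.0.16 quasi-likelihood model (R 4.3.3) with 3 group means, after filterByExpr and TMM scaling. Tests were two-sided, with Benjamini-Hochberg adjustment over 15907 genes and a threshold of 0.1, as in the study, which used DESeq2. Standard errors are the absolute log2 fold change over the square root of F, and log2 CPM uses a prior count of 2. The scripts were tested on simulated counts. DESeq2 1.42.0, limma 3.58.1 (voom with quality weights), other scalings, filters and sample choices were alternatives. At most 3 genes per role list and comparison, those with the smallest adjusted p, and the 2 genes most like each called member were named. Camk2a is also given for dLG against MGv, where it ranked below these, and was chosen there after its values were seen. A fit with the replicate number as block was among the alternatives.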

Additional observations from a re-analysis of the deposited data

Results flagged for a closer look

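Of 44 sets of 4 library values examined in dLG and VPM, 4 held a library that lay far from the other 3, its gap to the nearest as a share of the whole range exceeding Dixon's 95% limit. Chance alone flags about 1 in 20 such sets where the values are independent, and sets of 3 MGv libraries were not examined. VPM 3 had 1822 CPM of Stmn4 against 1448 to 1499 in the other VPM libraries. The same library had the lowest share of Stmn2 among the stathmins per kb, 14.3% against 20.02% to 20.97%. VPM 3 also had the lowest correlation of its deviations with exon length, -0.365 against 0.204 to 0.238. The deviations of the other VPM libraries were taken from means that include VPM 3. The values of this set are therefore tied to each other, and Dixon's limit does not hold for it. In dLG 3 the ratio of Map2 to Mapt per kb was 0.0797 against 0.0601 to 0.0630 in the other dLG libraries. The cause of these deviations was not tested.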

How the results depend on the processing

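The 4 MGv differences of Stmn1 and Stmn4 kept their direction under all 25 alternatives and passed in each, except Stmn4 between dLG and MGv without MGv replicate 3. Members called between dLG and VPM (1) became 3 with limma voom and 0 with total-count scaling, with the replicate block, with only the 2 nuclei compared and at an adjusted p under 0.05. Between dLG and MGv (3) they became 5 with exon length offsets. Between VPM and MGv (4) they became 2 with only the 2 nuclei compared, without VPM 3 and MGv 3, and at an adjusted p under 0.05. Leaving out 1 library gave 0 to 3, 1 to 4 and 2 to 4 members. Libraries with the same replicate number did not deviate together on average (mean r 0.02 over 10 pairs, from -0.20 to 0.48). The 30 pairs with other numbers had a mean r of -0.005, from -0.31 to 0.27. The highest same-number value thus lay above all of these. With the replicate block, Map1b was -0.45 for dLG minus VPM (edgeR adjusted p = 0.118) and -0.46 for dLG minus MGv (0.126), and Map2 was -0.46 for VPM minus MGv (0.208), and no other member call was lost. Genes called between dLG and VPM (1704) became 4414 with voom, 2618 without dLG 2, VPM 3 and MGv 1 (the libraries with low Hspa8) and 2616 without VPM 3 and MGv 3. Leaving out 1 library gave 1093 to 2223, 1886 to 3300 and 2024 to 3235 genes in the 3 comparisons, the highest each time without VPM 3, and for dLG against VPM the lowest were 1093 without VPM 2 and 1101 without VPM 1. Other microtubule genes called between dLG and VPM (6) became 10 with DESeq2, 35 with voom, 10 without the low-count filter, 18 without dLG 2, VPM 3 and MGv 1, 11 with exon length offsets and 20 without VPM 3 and MGv 3. Between VPM and MGv (15) they became 32 with voom, 23 without dLG 2, VPM 3 and MGv 1, 23 with a covariate for those libraries, 23 with exon length offsets and 27 without VPM 3 and MGv 3. Leaving out 1 library gave 4 to 16, 14 to 30 and 13 to 23. Exon length offsets and the fit without VPM 3 and MGv 3 were chosen after seeing the data.

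Sign changes occurred only in comparisons where the member was not called. For dLG minus VPM, Mapt was -0.0376 with voom, -0.0492 without dLG 2, VPM 3 and MGv 1 and -0.0573 without VPM 3 and MGv 3, and Dclk1 was 0.0798 with total counts and 0.0134 with the covariate. For dLG minus MGv without VPM 3 and MGv 3, Map2 was 0.0157 and Dclk1 0.0386. For VPM minus MGv, Stmn2 was -0.0122 with total counts and -0.0572 without dLG 2, VPM 3 and MGv 1, where Stmn3 was -0.11, and Stmn3 was -0.0434 with length offsets and -0.039 without VPM 3 and MGv 3. Map1a was 0.15 with voom and 0.28 without VPM 3 and MGv 3, Map1b 0.13 with voom, 0.078 with length offsets and 0.17 without VPM 3 and MGv 3, Dcx 0.0221 with length offsets, and Dclk1 0.0125 with voom and 0.16 without VPM 3 and MGv 3. Without 1 library each, dLG minus VPM ran from -0.0283 to 0.192 for Stmn1, -0.0547 to 0.147 for Mapt and -0.123 to 0.0905 for Dclk1, dLG minus MGv from -0.396 to 0.0139 for Map2, -0.004 to 0.12 for Dcx and -0.401 to 0.0362 for Dclk1, and VPM minus MGv from -0.0535 to 0.359 for Stmn3, -0.314 to 0.114 for Map1a, -0.13 to 0.0869 for Map1b and -0.384 to 0.0531 for Dclk1. Total-count scaling moved the median log2 difference of all genes between dLG and VPM to 0.10 and the share of calls higher in dLG from 46.4% to 61.1%. With raw counts in place of counts per kb, Stmn2 held the largest share of the stathmins, a mean of 50.8% in dLG, 49.9% in VPM and 53.6% in MGv. Where not stated, the cause was not tested. The MGv libraries were the shallowest, and every member had at least 667 counts per library. These are reads of amplified cDNA, so the counts bound counting error only.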

Other observations

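The gene Hspa8, a constitutive chaperone, had 3.05, 5.56 and 4.09 CPM in dLG 2, MGv 1 and VPM 3 and 159 to 581 CPM in the other 8 libraries.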
